A study of Rattus norvegicus with 6 samples.

Results

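Basement membranes are thin sheets of matrix under epithelium and endothelium and around muscle and decidual cells. Laminins, trimers of an alpha, a beta and a gamma chain, and type IV collagen, a triple helix of alpha chains, each build a network there, and nidogens bridge the networks. In the pregnant uterus these proteins surround maternal vessels and decidual cells, and trophoblast crosses them when it enters the uterine wall. The genes described here are Lama2, Lama4, Lama5, Lamb1, Lamb2, Lamc1, Nid1, Nid2, Col4a1 and Col4a2. They were taken by name, and all 16 probe sets annotated to a single one of these 10 genes were used, out of 31042 probe sets that covered 14217 named genes.

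RNA came from the metrial gland, the part of the rat uterine wall that lies behind the placenta and holds maternal natural killer cells, vessels and stroma. It was measured in 6 single-channel arrays. Of these, 3 were from pregnant rats in ambient air with 21% oxygen and 3 from pregnant rats held in hypoxia (10.5% oxygen), which began on gestation day 6.5 and lasted until the tissue was taken on day 13.5. The labels name no strain, age, transgene or other agent. Nor do they say whether each array is a different animal, and the p-values therefore cover only the spread among these samples, part of which may be technical. The comparison asks which transcripts of this tissue differ after low oxygen.

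Values are log2 expression as deposited, so a difference of 1 is a 2-fold change. The natural killer cell genes Prf1 (perforin) and Gzmb (granzyme B) stood at 13.64 ± 0.17 and 14.47 ± 0.05 in ambient (SD, n = 3), so defining genes of the labelled tissue were present. Array medians lay between 6.44 and 6.47. The highest of 27 bacterial control probe sets, a guide to background, lay between 4.81 and 5.003. Probes at the 3' end of beta-actin, set against those at its 5' end to gauge RNA integrity, differed by 0.41 to 0.54 in ambient and by 0.58 to 0.77 in hypoxia (two-sided exact permutation p = 0.1; 3 against 3 can give none smaller). For GAPDH the same contrast was -0.047 to -0.008 in ambient and -0.040 to 0.057 in hypoxia. The groups overlapped there (two-sided exact permutation p = 0.2). The part of RNA integrity in the results was not tested.

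Col4a1 and Col4a2 are read in opposite directions from starts 77 bases apart on chromosome 16, per RefSeq assembly GRCr8. The 76 bases between the starts are shown because both collagen genes use them, followed by the 120 bases before the start of Lama5, Lamb1 and Nid1, which rose, and of Lamc1, which did not pass. All are written 5′ to 3′, on the strand of the named gene (that of Col4a1 for the shared interval), with capitals on GGGCGG or its reverse complement, a GC box.
Col4a1 and Col4a2, chr16:84885521-84885596, plus strand: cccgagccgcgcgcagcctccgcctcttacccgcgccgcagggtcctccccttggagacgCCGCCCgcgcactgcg
Lama5, chr3:187695975-187696094, minus strand: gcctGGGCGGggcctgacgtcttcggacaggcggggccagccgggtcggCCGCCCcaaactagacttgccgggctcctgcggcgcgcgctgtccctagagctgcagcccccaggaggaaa
Lamb1, chr6:53562976-53563095, plus strand: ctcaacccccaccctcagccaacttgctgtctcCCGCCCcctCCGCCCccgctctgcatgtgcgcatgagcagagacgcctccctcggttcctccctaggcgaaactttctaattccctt
Nid1, chr17:93069166-93069285, plus strand: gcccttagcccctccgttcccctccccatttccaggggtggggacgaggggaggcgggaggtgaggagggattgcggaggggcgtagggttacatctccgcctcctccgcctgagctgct
Lamc1, chr13:68051987-68052106, minus strand: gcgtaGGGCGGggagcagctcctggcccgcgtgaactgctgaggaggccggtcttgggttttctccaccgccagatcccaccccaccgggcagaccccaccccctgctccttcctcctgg

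Windows from 250 bases before to 50 after the start were found for 8 of the 10 genes. Lamb2 and Nid2 are named only. Searched on both strands, GGGCGG was in 7 of the 8 windows, all but that of Lama4 (in that of Nid1 it lies outside the bases shown), against 41.8% of 21851 windows of protein-coding genes. The 8 windows held between 55% and 75% G and C, with a median of 55% over the protein-coding windows. CCAAT was in 4 of the 8, those of Lama2, Nid1, Col4a1 and Col4a2, against 38%. TATAAA was in that of Lama4 alone, against 13%. ACGTG was in 0 of the 8, against 19.8%, which says only that these letters are not in these windows. The windows of Col4a1 and Col4a2 share 176 bases and are not independent. Of 10916 plus-strand protein-coding windows, 84 (0.77%) had a minus-strand protein-coding start as near upstream as this pair or nearer.

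Low oxygen went with higher laminin alpha 5, laminin beta 1, nidogen 1 and type IV collagen alpha 1 transcripts, all by modest amounts. Of the 16 probe sets, 13 were tested and 3 were left out for a low mean; every tested one had both group means above 8, well over the limit of 5.74 set on the mean. Of the 13, 4 rose, 0 fell and 9 did not pass at a limma adjusted p under 0.05. The 4 were those of Lama5 and Lamb1, 1 of the 2 for Nid1 and 1 of the 2 for Col4a1. The other Nid1 probe set differed by only 0.04. Only Lama5 still passed when any single array other than hypoxia replicate 3 was dropped, or with no variance trend, and 2 probe sets passed with quantile normalization. Over all 18625 probe sets tested, 5.99% passed: 4.02% rose and 1.97% fell. At an unadjusted p under 0.05 there were 7 of the 13, against 23.7% of all. The difference was positive in 12 of the 13, against 50.8% of all, with a median of 0.29 beside 0.00335 over all probe sets tested. In 6 of the 13, from 5 genes, every hypoxia array lay above every ambient array, against 15.8% of all. These shares describe genes picked with earlier results known. In bulk tissue, more cells of a type and more RNA per cell cannot be told apart.

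**Figure D1:**
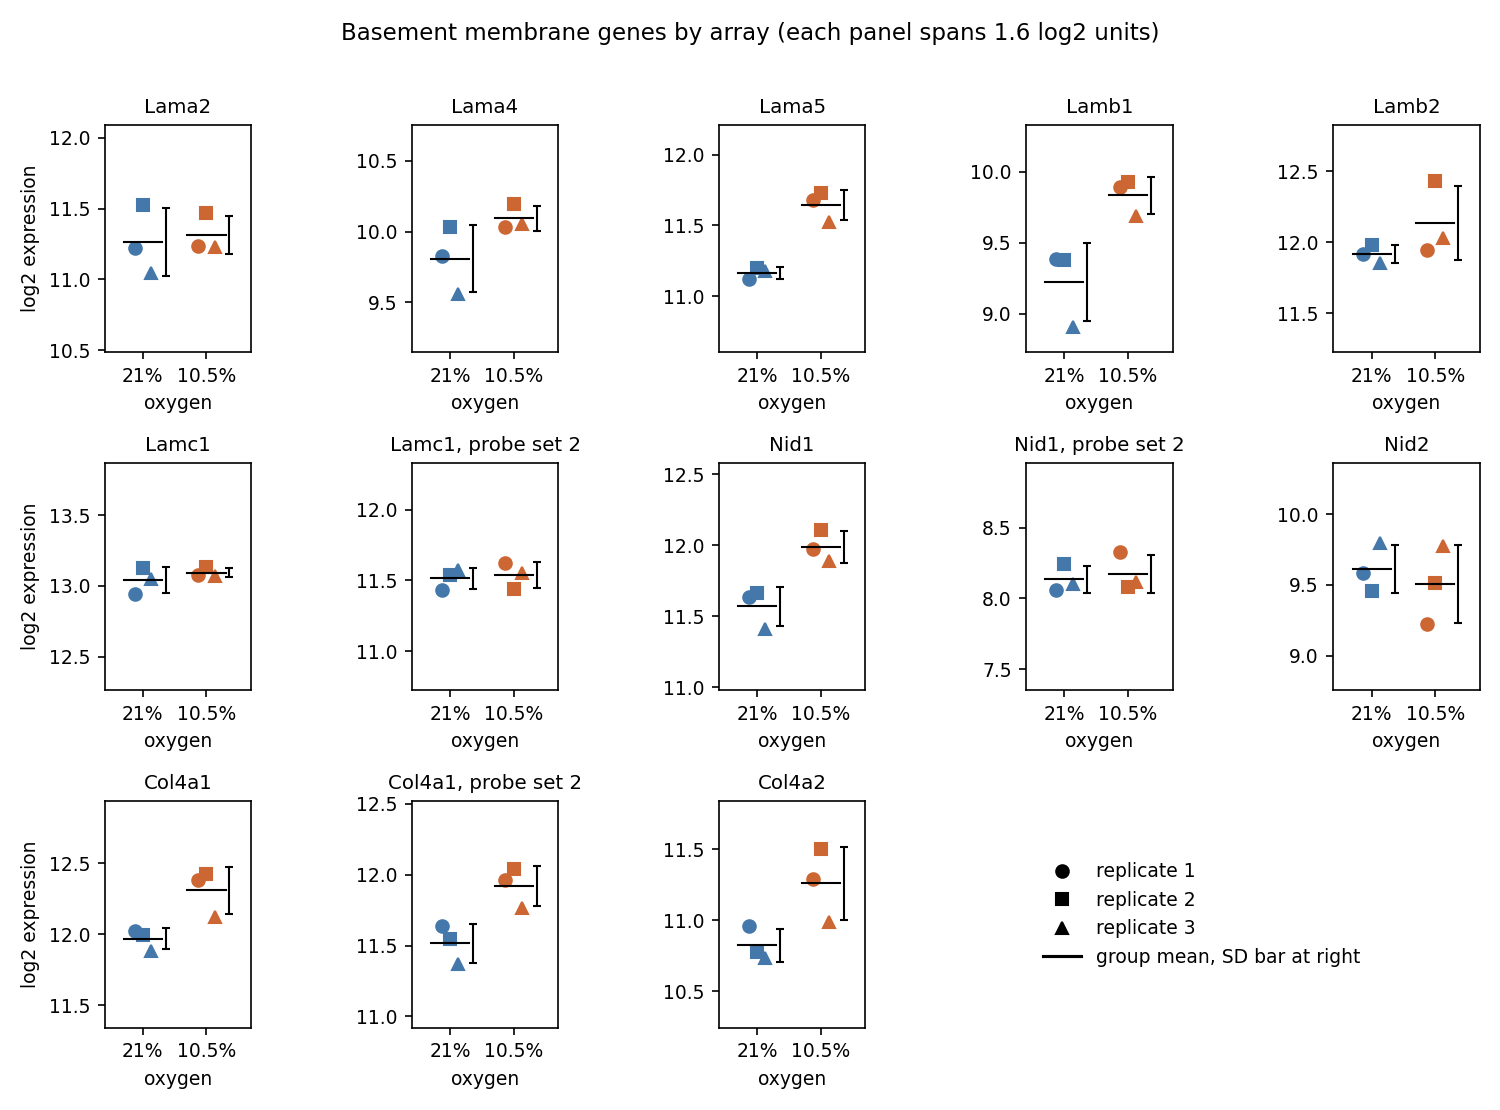
Log2 expression (vertical axis) of the 13 tested probe sets on each array, by oxygen level; symbols mark the replicate, lines the group mean and bars the SD (n = 3). Hypoxia arrays lie above all ambient arrays for Lama5, Lamb1, the first Nid1 probe set, both Col4a1 probe sets and Col4a2, and the groups overlap in the other panels.

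Lama5 encodes the alpha 5 chain, the long alpha chain of laminins in mature vessel and epithelial basement membranes. It read 11.12, 11.20 and 11.18 on the ambient arrays and 11.68, 11.73 and 11.53 on the hypoxia arrays. The ambient arrays lay within 0.1 of each other, and the lowest hypoxia array was 0.33 above the highest of them. Lama5 rose by 0.48 (SE 0.07), or 1.39-fold, from 11.17 ± 0.04 to 11.65 ± 0.11 (SD, n = 3), with an adjusted p of 0.0101. It passed under every alternative run, with adjusted p from 0.00587 to 0.0414 and a rise from 0.44 to 0.54. The other 2 probe sets of Lama5 were left out for low means: they averaged 4.93 and 4.29 in ambient, at the level of the bacterial controls, and differed by -0.029 and 0.10, so the rise rests on a single probe set.

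Lama4 encodes the alpha 4 chain, typical of endothelium. It read 9.83, 10.03 and 9.56 in ambient and 10.03, 10.20 and 10.05 in hypoxia. Ambient replicate 2 lay at the level of the lowest hypoxia array, so the groups met. The difference was 0.29 (95% interval 0.02 to 0.56, adjusted p = 0.188) and did not pass; without ambient replicate 2 it was 0.40 and without ambient replicate 3 it was 0.16. A second probe set stayed under the highest bacterial control on all 6 arrays. Lama2, whose alpha 2 chain belongs to muscle and decidual basement membranes, read 11.22, 11.52 and 11.05 in ambient and 11.24, 11.47 and 11.23 in hypoxia. The groups overlapped, with a difference of 0.05 (95% interval -0.23 to 0.33, adjusted p = 0.85). Its sign turned without ambient replicate 3 (-0.061), without hypoxia replicate 2 (-0.031) and with array weights (-0.033).

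Among the beta chains, Lamb1 had the largest difference of the 10 genes. It read 9.38, 9.38 and 8.90 in ambient and 9.90, 9.93 and 9.69 in hypoxia. Ambient replicate 3 lay well below the other ambient arrays, and the gap between the groups was 0.30. Lamb1 rose by 0.61 (SE 0.14), or 1.53-fold, from 9.22 ± 0.28 to 9.84 ± 0.13 (SD, n = 3; adjusted p = 0.0426). Without ambient replicate 3 the rise was 0.46 (adjusted p = 0.0702). The call was lost when any single array other than hypoxia replicate 3 was dropped (adjusted p from 0.0639 to 0.116), with quantile normalization (0.0509) and with no variance trend (0.056).

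Lamb2, the beta 2 chain found at the neuromuscular junction, the glomerulus and in vessel walls, read 11.92, 11.98 and 11.86 in ambient and 11.94, 12.43 and 12.03 in hypoxia. Hypoxia replicate 2 stood apart on the high side and replicate 1 lay within the ambient range. The difference was 0.22 (95% interval -0.05 to 0.49, adjusted p = 0.308), and 0.07 without hypoxia replicate 2. Lamc1, the gamma 1 chain that most laminins share, was measured by 2 probe sets. The first read 12.94, 13.12 and 13.05 in ambient and 13.08, 13.13 and 13.07 in hypoxia, and the second 11.43, 11.54 and 11.57 and then 11.62, 11.44 and 11.55. The groups overlapped in both, with differences of 0.05 (95% interval -0.07 to 0.18, adjusted p = 0.6) and 0.02 (-0.13 to 0.18, adjusted p = 0.858). The upper ends of these intervals lie below the fitted rises of Lama5 and Lamb1.

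Nid1 encodes nidogen 1, which binds the laminin gamma 1 chain and type IV collagen. Its first probe set read 11.64, 11.66 and 11.41 in ambient and 11.97, 12.11 and 11.89 in hypoxia. All hypoxia arrays were higher, with a gap of 0.23 between the groups. This probe set rose by 0.42 (SE 0.08), or 1.34-fold, from 11.57 ± 0.14 to 11.99 ± 0.11 (SD, n = 3; adjusted p = 0.0336). The call was lost when any single array other than hypoxia replicate 3 was dropped (adjusted p from 0.0627 to 0.0899) and with no variance trend (0.055). The second read 8.06, 8.24 and 8.10 in ambient and 8.33, 8.08 and 8.12 in hypoxia, all above the bacterial controls. The groups overlapped there, with a difference of 0.04 (95% interval -0.17 to 0.26, adjusted p = 0.824), so the probe sets of Nid1 disagreed: 0.42 lies outside the interval of the second.

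Nid2, the second nidogen, read 9.58, 9.46 and 9.80 in ambient and 9.23, 9.52 and 9.78 in hypoxia. It is the only one of the 10 with a negative difference, -0.11 (95% interval -0.44 to 0.22, adjusted p = 0.694), and its groups overlapped. Without hypoxia replicate 1, the lowest array, the difference was 0.03.

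Col4a1 and Col4a2 encode the alpha 1 and alpha 2 chains, which join 2 to 1 in the most widespread type IV collagen. Col4a1 was measured by 2 probe sets. The first read 12.02, 11.99 and 11.88 in ambient and 12.39, 12.43 and 12.12 in hypoxia. The second read 11.64, 11.55 and 11.37 in ambient and 11.96, 12.04 and 11.76 in hypoxia. In both, all hypoxia arrays were above all ambient arrays, and replicate 3 was the lowest of either group.

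The first Col4a1 probe set, the brighter, differed by 0.34 (SE 0.09; 1.27-fold), from 11.97 ± 0.07 to 12.31 ± 0.17, and did not pass (adjusted p = 0.0566). The second rose by 0.40 (SE 0.09; 1.32-fold), from 11.52 ± 0.14 to 11.92 ± 0.14 (SD, n = 3), with an adjusted p of 0.0455. The probe sets thus gave nearly the same difference on opposite sides of the threshold. The second lost its call when any single array other than hypoxia replicate 3 was dropped (adjusted p from 0.0639 to 0.137), with quantile normalization (0.054) and with no variance trend (0.0683). The first passed without hypoxia replicate 3 (0.44, adjusted p = 0.0166) and with array weights (0.0355).

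Col4a2 read 10.96, 10.78 and 10.73 in ambient and 11.29, 11.50 and 10.98 in hypoxia. Hypoxia replicate 3 was only 0.03 above the highest ambient array. The difference was 0.44 (SE 0.13; 1.35-fold), from 10.82 ± 0.12 to 11.26 ± 0.26, and did not pass (adjusted p = 0.0837). It passed without hypoxia replicate 3 (0.58, adjusted p = 0.0242) and with array weights (0.0474).

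**Figure D2:**
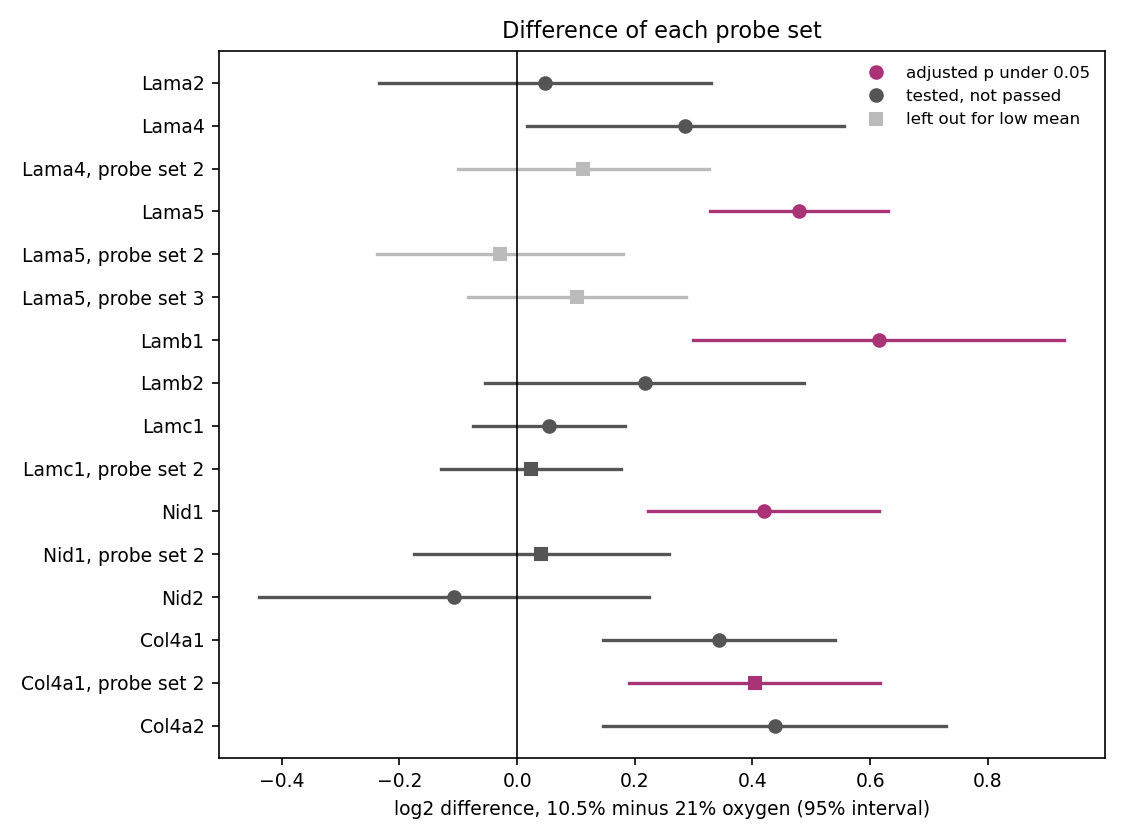
Log2 difference, 10.5% minus 21% oxygen, of each of the 16 probe sets with its 95% interval from the limma fit; circles are the probe set with the highest mean of a gene, squares the others. Among the circles, the intervals of Lamb1, Lama5, Nid1, Col4a1, Col4a2 and Lama4 lie above 0 and those of Lamc1, Lama2, Lamb2 and Nid2 span it; among the squares, only that of Col4a1 lies above 0.

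The arrays held a similar order across most of the 10 genes. By the brightest probe set of each gene, hypoxia replicate 2 was the highest hypoxia array for 9 of 10 genes and hypoxia replicate 3 the lowest for 7. Ambient replicate 3 was the lowest ambient array for 7 of 10, and ambient replicate 2 the highest for 6. Nid2 ran against this order, with replicate 3 the highest of both groups. The order over all probe sets tested was not computed, so it cannot be told whether it is particular to these genes. Hypoxia replicate 2 also had the highest beta-actin 3' minus 5' signal, 0.77; its part in the order was not tested.

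Ratios between related chains were then compared within each array, as the difference of log2 values of the brightest probe sets, for 5 pairs; 3 arrays against 3 cannot give a p below 0.1. Probe sets bind with unequal strength, so only the change of a ratio can be read, not its level. Lama4 minus Lama2 read -1.39, -1.49 and -1.49 in ambient and -1.21, -1.27 and -1.18 in hypoxia. All hypoxia arrays were above all ambient arrays, a change of 0.24 from -1.46 ± 0.06 to -1.22 ± 0.05 (SD, n = 3; two-sided exact permutation p = 0.1, adjusted over the 5 pairs 0.25). Here the spread within groups was smaller than for either gene alone, 0.24 for both Lama4 and Lama2 in ambient.

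Lamb1 minus Lamb2 read -2.53, -2.60 and -2.95 in ambient and -2.05, -2.50 and -2.34 in hypoxia. The groups did not overlap but nearly met, with a change of 0.40 (exact permutation p = 0.1, adjusted 0.25). Nid1 minus Nid2 changed by 0.53, from 1.96 ± 0.30 to 2.48 ± 0.33, with overlapping groups (exact permutation p = 0.2, adjusted 0.333). Col4a1 minus Col4a2 changed by -0.094, from 1.15 ± 0.07 to 1.05 ± 0.11 (exact permutation p = 0.4, adjusted 0.4). Lama4 minus Lama5 changed by -0.19 (exact permutation p = 0.3, adjusted 0.375). With 3 arrays a group, this permutation test could pass none of the 5.

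**Figure D3:**
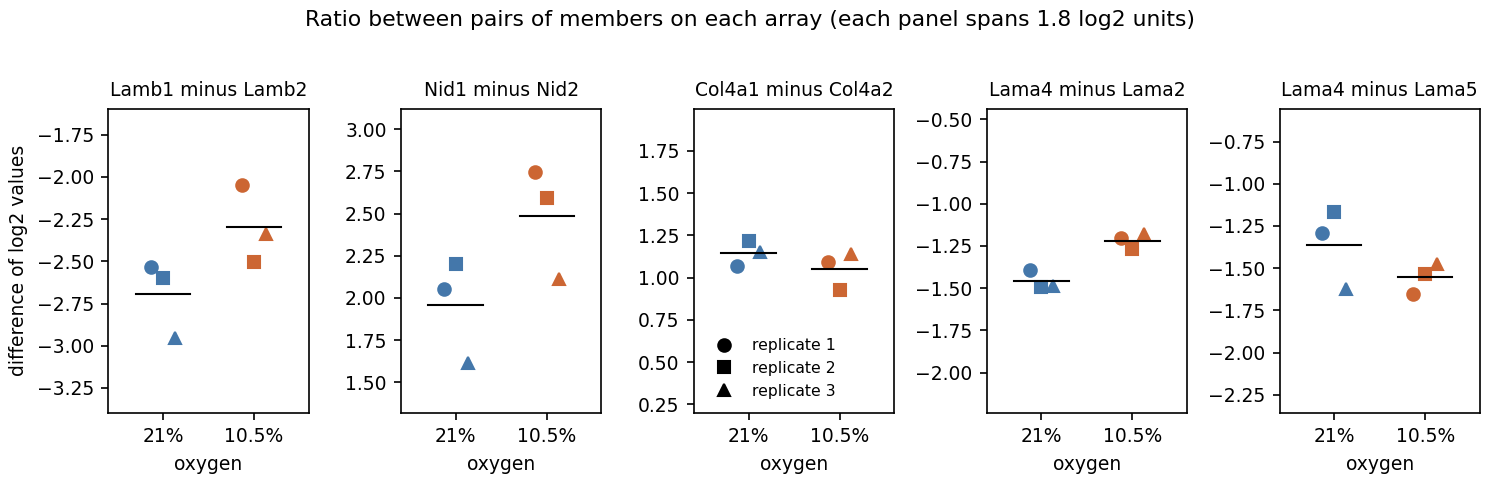
Difference of the log2 values of 2 genes on each array (vertical axis), by oxygen level, for 5 pairs; symbols mark the replicate and lines the group mean. Lama4 minus Lama2 and Lamb1 minus Lamb2 are higher on all hypoxia arrays, and the groups overlap for the other 3 pairs.

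The genes whose course over the 6 arrays was nearest to that of a member were found by the root mean square distance between mean-centred log2 profiles. Nearest to the first Col4a1 probe set was Col4a5, which encodes the alpha 5 chain of type IV collagen, at a distance of 0.032, followed by Rufy1 (0.039) and Klf3 (0.043). For comparison, Nid1 lay at 0.076, Col4a2 at 0.091 and Lama5 at 0.096 from Col4a1. The Col4a5 difference of 0.37 (SE 0.10) missed the threshold (adjusted p = 0.0637) but met it without hypoxia replicate 3 (0.47, adjusted p = 0.0296) and with array weights (0.0449). Profiles were matched over all 6 arrays of both groups. A difference near that of Col4a1 therefore follows from how Col4a5 was picked and is not separate support. Nearest to Lamb1 were Aspn (0.060), a small leucine-rich proteoglycan, Plac9 (0.063) and Larp6 (0.070), an RNA-binding protein. Nid1, the nearest of the other members, lay at 0.13 from Lamb1.

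Other basement membrane components had 2 rises, 0 falls and 13 that did not pass among 15 measured genes, with a median difference of 0.02. Agrn, which encodes the heparan sulfate proteoglycan agrin and binds laminin and dystroglycan, rose by 0.59 (SE 0.07), from 8.93 ± 0.09 to 9.52 ± 0.02 (adjusted p = 0.00643), and passed under every alternative. Smoc1, a SPARC-related calcium-binding protein, rose by 0.60 (SE 0.13, adjusted p = 0.037). A second Smoc1 probe set rose by 0.67. The Smoc1 call was lost when any single array other than hypoxia replicate 3 was dropped (adjusted p from 0.0685 to 0.117). Hspg2, Col18a1, Col15a1 and Sparc, named here for their place in the same sheets, differed by 0.12, 0.14, -0.016 and -0.097 and did not pass.

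Laminin and collagen IV receptors had 1 rise, 1 fall and 13 that did not pass among 15, with a median of 0.10. Dag1, which encodes dystroglycan, a laminin and agrin receptor, rose by 0.43 (SE 0.07, adjusted p = 0.0146). Its 3 other probe sets differed by 0.30 to 0.34 and did not pass. Dag1 no longer passed once ambient replicate 2 (adjusted p = 0.0505), ambient replicate 3 (0.0613) or hypoxia replicate 1 (0.0558) was left out. Sdc4, the heparan sulfate proteoglycan syndecan 4 of focal adhesions, fell by 0.43 on the log2 scale (SE 0.07), from 11.33 ± 0.05 to 10.90 ± 0.10 (adjusted p = 0.0134; without ambient replicate 3 0.0575).

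Enzymes and chaperones that fold and crosslink collagen IV had 2 rises, 0 falls and 12 that did not pass among 14, with a median of 0.14. Both were alpha subunits of prolyl 4-hydroxylase, which uses oxygen to hydroxylate the prolines that stabilise the triple helix. P4ha1 rose by 0.45 (SE 0.06, adjusted p = 0.0117) and P4ha2 by 0.42 (SE 0.08, adjusted p = 0.024). A second P4ha2 probe set differed by 0.07 and did not pass. P4ha3, which did not pass, averaged 5.67 in ambient, under the limit of 5.74, and was kept through its hypoxia mean of 6.03. The P4ha1 call was lost without ambient replicate 3 (0.0502) and that of P4ha2 without any 1 array other than ambient replicate 2 and hypoxia replicate 3 (adjusted p from 0.0524 to 0.0805).

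Proteases that cut basement membranes, and their inhibitors, had 4 rises, 0 falls and 11 that did not pass among 15, with a median of 0.17. Ctsb, the lysosomal protease cathepsin B, rose by 0.38 (SE 0.05, adjusted p = 0.00869), Hpse, which cuts heparan sulfate, by 0.54 (SE 0.09), Plat, tissue plasminogen activator, by 0.35 (SE 0.06) and Mmp15, a membrane-bound metalloproteinase, by 0.86 (SE 0.16). The Ctsb call held without any 1 array. That of Hpse was lost without ambient replicate 1 (0.0512) or ambient replicate 3 (0.0698), that of Plat without any 1 array but hypoxia replicate 3 (0.057 to 0.0739), and Mmp15 missed the threshold when an ambient array or hypoxia replicate 3 was dropped (0.0526 to 0.105).

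Many endothelial and trophoblast markers rose as well. Of 16 endothelial genes, 10 rose, 0 fell and 6 did not pass, with a median of 0.48, Vwf and Tie1 among the rises at 1.20 and 0.69. Their summed signal on the linear scale was 8499 to 9114 on the ambient and 10535 to 11225 on the hypoxia arrays, and none was left out for a low mean. Kdr, the brightest at 12.02 in ambient, weighs most in this sum. It differed by 0.10 and did not pass. Nos3, also among the rises, averaged 5.63 in ambient, under the limit of 5.74, and was kept through its hypoxia mean of 6.29. Erg, which did not pass, was kept in the same way (5.735 in ambient, 5.94 in hypoxia). Of 15 trophoblast genes, 9 rose, 0 fell and 6 did not pass, with a median of 1.30. Plac1 and Krt7 were among the rises at 2.16 and 1.05. Psg19 did not pass but enters the median and the sum. It averaged 5.54 in ambient, under the limit of 5.74, and was kept through its hypoxia mean of 7.57. The summed trophoblast signal was 3300 to 7473 in ambient and 13846 to 20220 in hypoxia, with Elf5 and Tpbpa left out for a low mean. This sum leans on the brightest genes, Prl7b1 (10.95 in ambient, 12.86 in hypoxia) and Prl5a1 (10.02 and 11.95). The part of either cell type in the basement membrane rises was not tested.

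Smooth muscle and pericyte genes had 0 calls by limma among 13, with a median of 0.20. At an unadjusted p under 0.05 there were 4 of the 13, against 23.7% of all probe sets tested. The summed signals of the 13 overlapped, at 39775 to 51611 in ambient and 39004 to 51892 in hypoxia. Des and Rgs5 had the smallest p, with differences of 0.20 and 0.41 (adjusted p = 0.126 and 0.107); Des passed without hypoxia replicate 3 (0.27, adjusted p = 0.0403). Genes of parietal and visceral endoderm, whose parietal cells secrete laminin and collagen IV into Reichert's membrane, had 2 rises, 0 falls and 9 that did not pass among 11. The 2 were Lamb1 itself and Sox17, which is also on the endothelial list, and the median was -0.097. A second Sox17 probe set differed by 0.34 and did not pass (limma adjusted p = 0.252). Col4a1 is on this list too and did not pass by its brightest probe set. Afp, Gata4, Cubn and Lama1, whose alpha 1 chain marks that membrane, were left out for low means.

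Decidual and fibroblast stroma genes had 2 rises, 0 falls and 13 that did not pass among 15, with a median of 0.06. Hand2 rose by 0.64 and Bmp2 by 0.91. Bmp2 averaged 5.67 in ambient, under the limit of 5.74 set on the mean, and was kept through its hypoxia mean of 6.58. It missed the threshold with no variance trend (adjusted p = 0.0502). The Bmp2 call was also lost when any single array other than ambient replicate 1 was dropped (adjusted p from 0.0561 to 0.132). Wnt4, which did not pass, was likewise kept through its hypoxia mean (5.67 in ambient, 5.87 in hypoxia). Natural killer cell genes had 0 rises, 4 falls (Cst7, Nkg7, Eomes and Il2rb) and 4 that did not pass among 8, with a median of -0.35. A second Eomes probe set differed by -0.26 and did not pass (limma adjusted p = 0.127). Of the 4 falls, only Nkg7 passed without ambient replicate 3 and only Cst7 without hypoxia replicate 1. Il2rb also missed the threshold without ambient replicate 1 (limma adjusted p = 0.0561) or hypoxia replicate 2 (0.0639). Eomes missed it in 3 of the 6 runs without 1 array. Epithelial genes had 1 rise (Krt8, also on the trophoblast list), 3 falls (Cdh1, Epcam and Spint2) and 4 that did not pass among 8, with a median of -0.40. Cdh1 and Epcam no longer passed once any single array other than hypoxia replicate 1 was dropped (adjusted p from 0.0771 to 0.154 and from 0.0647 to 0.123), or with array weights (0.0785 and 0.0613). Spint2 did not pass whichever of the 6 arrays was dropped (0.0547 to 0.151), and Krt8 did not pass without ambient replicate 3 (0.0588).

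**Figure D4:**
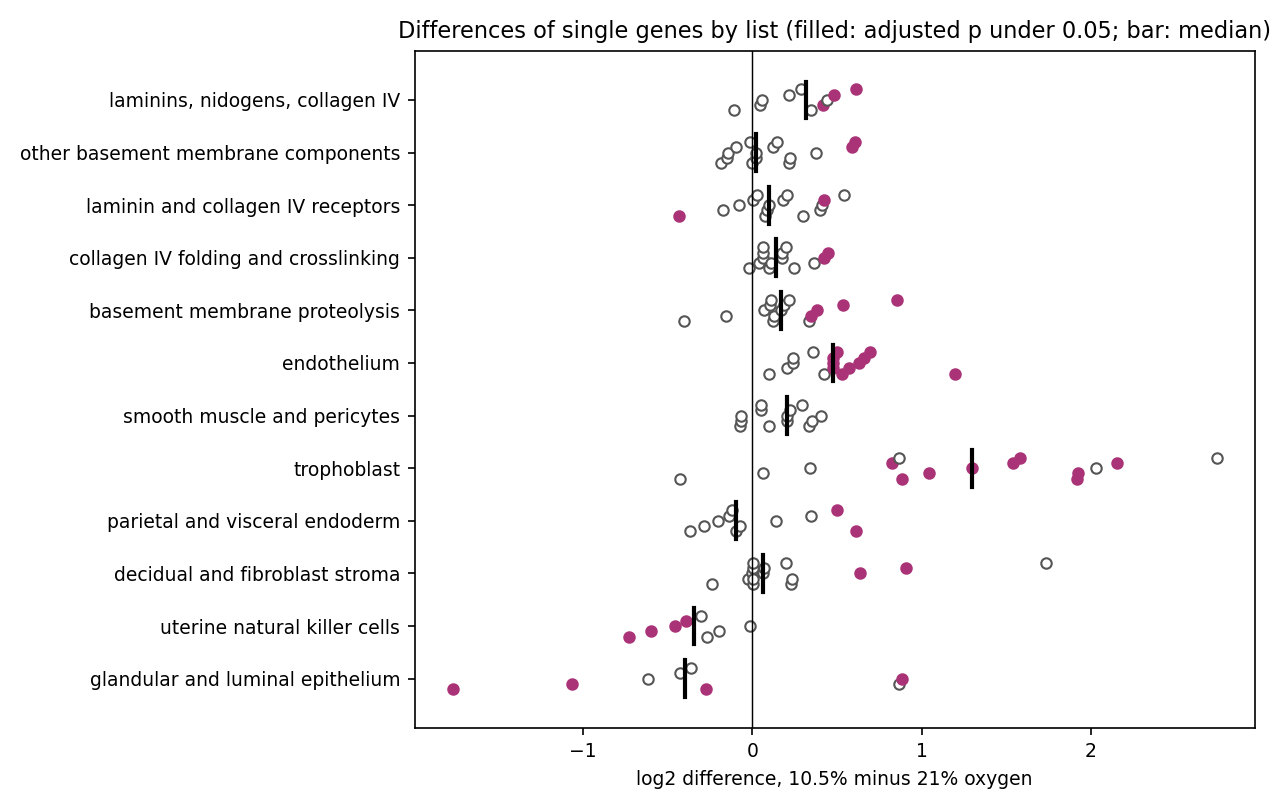
Log2 difference, 10.5% minus 21% oxygen (horizontal axis), of the 10 genes and of each measured gene in 11 other lists, by its brightest probe set; filled points passed at an adjusted p under 0.05 and the black bar is the list's median. The laminin, nidogen and collagen IV genes have a median of 0.31, between 0.02 for other basement membrane components and 0.48 for endothelial genes.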

How the data were processed

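Total RNA of 6 metrial gland samples was labelled with biotin and hybridised to Affymetrix rat arrays, as the labels' protocols record. The deposited values are log2 expression, 1 per probe set and array; the scale was read from the values. MAS5 and Affymetrix Expression Console are named, with no role or version, per the submitters' processing notes. The sources used here do not state the background correction, summarization or scaling.

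Of 31099 probe sets, 57 controls were dropped, then the 40% lowest in mean log2 value; 18625 were tested. Symbols came from the platform annotation (20826 probe sets with 1 symbol, 436 with several, 9780 with none), and 20758 were found by gene identifier in RefSeq's GRCr8 table. The groups were compared with limma 3.58.1 under R 4.3.3 (lmFit, then eBayes with trend, two-sided, Benjamini-Hochberg over all tested probe sets, threshold 0.05), checked on simulated data. Intervals are 95%. A gene with several probe sets is led by the one with the highest mean.

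Named beside the 10 genes are up to 4 called genes of each list by smallest p, or 2 where none passed, and the 3 nearest profiles of Lamb1 and Col4a1; Hspg2, Col18a1, Col15a1, Sparc, Prf1 and Gzmb were added later. The members and lists were chosen with earlier results of these data known. Alternatives were quantile normalization, median centring, no filter, a 60% filter, no or a robust variance trend, an offset of 64, array weights, a replicate block and leaving out each array. Precision is limited by the number of arrays.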

Additional observations from a re-analysis of the deposited data

How the results depend on the processing

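Lama5 passed under all 15 alternatives, and 0 probe sets of the 10 genes fell under any of them. The 4 rises among their probe sets became 2 with quantile normalization and 1 (Lama5) with no variance trend, and ranged from 1 to 6 when 1 array was left out. Lamb1 lost its call with quantile normalization (0.58) and no variance trend (0.61), with a range of 0.46 to 0.70 without 1 array, and Nid1 with no variance trend (0.42), with a range of 0.34 to 0.47. Array weights and the replicate block brought the first Col4a1 probe set (0.35 and 0.34) and Col4a2 (0.44 and 0.44) past the threshold; without 1 array their ranges were 0.29 to 0.44 and 0.32 to 0.58. Lama2 ranged from -0.061 to 0.18 without 1 array and was -0.033 with array weights, and Nid2 from -0.24 to 0.033, the last without hypoxia replicate 1. The second Lamc1 probe set ranged from -0.018 to 0.072, negative without ambient replicate 1 or hypoxia replicate 1, and the second Nid1 probe set from -0.035 to 0.097, negative without hypoxia replicate 1. The changes of the 5 ratios were rerun only in the 6 runs without 1 array and in 2 of the other alternatives, and kept their sign there. The cause of these changes was not tested. Over all probe sets, 749 rose and 367 fell, with 226 to 666 and 44 to 340 without 1 array and 241 falling with no variance trend. Rises made up 67.1% of all calls, but 55.4% with quantile normalization.

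Replicate numbers are shared between the groups, but deviations of same-numbered arrays from their group means correlated at only 0.012, 0.071 and 0.070, so the numbers were not taken as pairs. With the replicate block, 797 probe sets rose and 520 fell, and the rises among the 10 genes' probe sets went from 4 to 6 (adjusted p = 0.0236 for the first Col4a1 probe set and 0.0454 for Col4a2); Col4a5, Aspn, Plac9 and Larp6 passed with it too. Not every array correlated best with its own number.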
